A study of Mus musculus with 27 samples.

Results

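The genes described here are the Janus kinases and the STAT transcription factors that these kinases phosphorylate. They are the 9 rows of the deposited table with the symbols Jak1, Jak2, Jak3, Tyk2, Stat2, Stat3, Stat5a, Stat5b and Stat6, that is 4 kinases and 5 factors among 45070 genes. Genes entered the tests if 3 or more of the 27 samples held 10 or more normalised read counts, and all 9 were among the 13901 that did. The study used primary bone marrow-derived macrophages from wild type mice to find kinases whose transcription is regulated by lipopolysaccharide (LPS, an outer membrane component of bacteria that activates TLR4) or by the cytokine IL-4. Per the methods, the mice were male, of the C57/BL6 strain and 6 to 8 weeks old. Every group, untreated cells included, had first spent 1 h in DMSO, a common drug solvent. Cells were then collected untreated or after 0.5, 1, 2 or 4 h with LPS or with IL-4, each at 10 ng/ml, with 3 replicates in each of the 9 groups. No label says whether replicates came from separate animals or cultures, so the p-values measure the spread between these samples, which may be technical. Chromatin-associated RNA was sequenced. It is enriched for transcripts that are still being made, so the values below lie closer to transcription than to the amount of mature mRNA or protein.

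Janus kinases sit on the inner tails of cytokine receptors, and when a ligand draws receptor chains together they phosphorylate the receptor and then STAT proteins, which pair up, enter the nucleus and bind DNA. JAK1, JAK3 and STAT6 carry the IL-4 signal through receptors that hold the common gamma chain, while TYK2 and JAK1 at the interferon-α/β receptor lead to STAT2, which binds DNA in a complex with IRF9. LPS acts through TLR4, which has no Janus kinase of its own, and macrophages given LPS secrete interferon-β and other cytokines that then signal through JAK and STAT proteins.

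Summed over genes, the normalised read counts came to 2469768 to 2790981 in untreated or IL-4 samples and to 3571492 to 4058199 in LPS samples, which after the scaling by the authors does not give the sequencing depth. Replicate 1 stood apart. Over the 620 genes that averaged 1000 or more, the SD of the log2 ratio was 0.138 to 0.287 between replicates 2 and 3 of a group and 0.370 to 0.496 between replicate 1 and either of the others. All 10 macrophage markers passed the filter, with a summed level of 10064 to 11202 in untreated, 11328 to 19854 in LPS and 11033 to 14150 in IL-4 samples. Of the markers of other cells, 3 of 10 for T or NK cells, 1 of 8 for B cells, 2 of 8 for neutrophils, 4 of 7 for dendritic cells, 3 of 8 for fibroblasts and 1 of 8 for erythroid cells or megakaryocytes passed. In the T or NK cell list Cd3e, Cd3g and Gzma were at 0 throughout, while Il7r (5 to 191) and Cd247 (6 to 56) were above 0 in every sample. Il7r also stands in the list of receptors used below. In the same order of groups the summed levels were 84 to 107, 40 to 225 and 20 to 92 for T or NK cells, and 14 to 37, 8 to 65 and 8 to 49 for B cells. They were 7 to 18, 10 to 148 and 8 to 47 for neutrophils, 11 to 20, 20 to 106 and 13 to 31 for dendritic cells, 39 to 95, 45 to 284 and 31 to 220 for fibroblasts, and 15 to 18, 7 to 47 and 5 to 22 for erythroid cells or megakaryocytes. Their part in the results was not tested, and in bulk RNA fewer cells of a type and less RNA per cell cannot be told apart.

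LPS moved all 9 genes, as it did most tested genes, and IL-4 moved fewer of either and by less. Sign aside, the median largest change with LPS was 1.91 log2 units in the 9 genes and 1.73 in all tested genes. With IL-4 it was 0.39 and 0.57. Over the LPS course all 9 passed the F test of any change (limma, adjusted p under 0.05), beside 87.6% of all tested genes. Jak2, Stat5a and Stat2 rose most, Jak1, Tyk2, Stat3 and Stat5b rose to smaller peaks, Jak3 moved least, and Stat6 first rose and then fell below its untreated level. Over the IL-4 course 6 passed, beside 40.3% of all tested genes. Jak2 and Stat2 rose at every time, Stat3, Stat5b and Stat6 fell at some times by less than 1.4-fold, and Stat5a passed the F test without passing at any single time. With the replicate number as a block, which takes out the offset of replicate 1, all 9 passed the IL-4 F test. So did 7409 of all 13901 tested genes, against 5606 in the main fit. Without replicate 1, 8 of the 9 passed, and without replicate 2 or without replicate 3 only 2 of them did. The calls over all tested genes were 6546, 2234 and 2169 without replicates 1, 2 and 3.

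**Figure D1:**
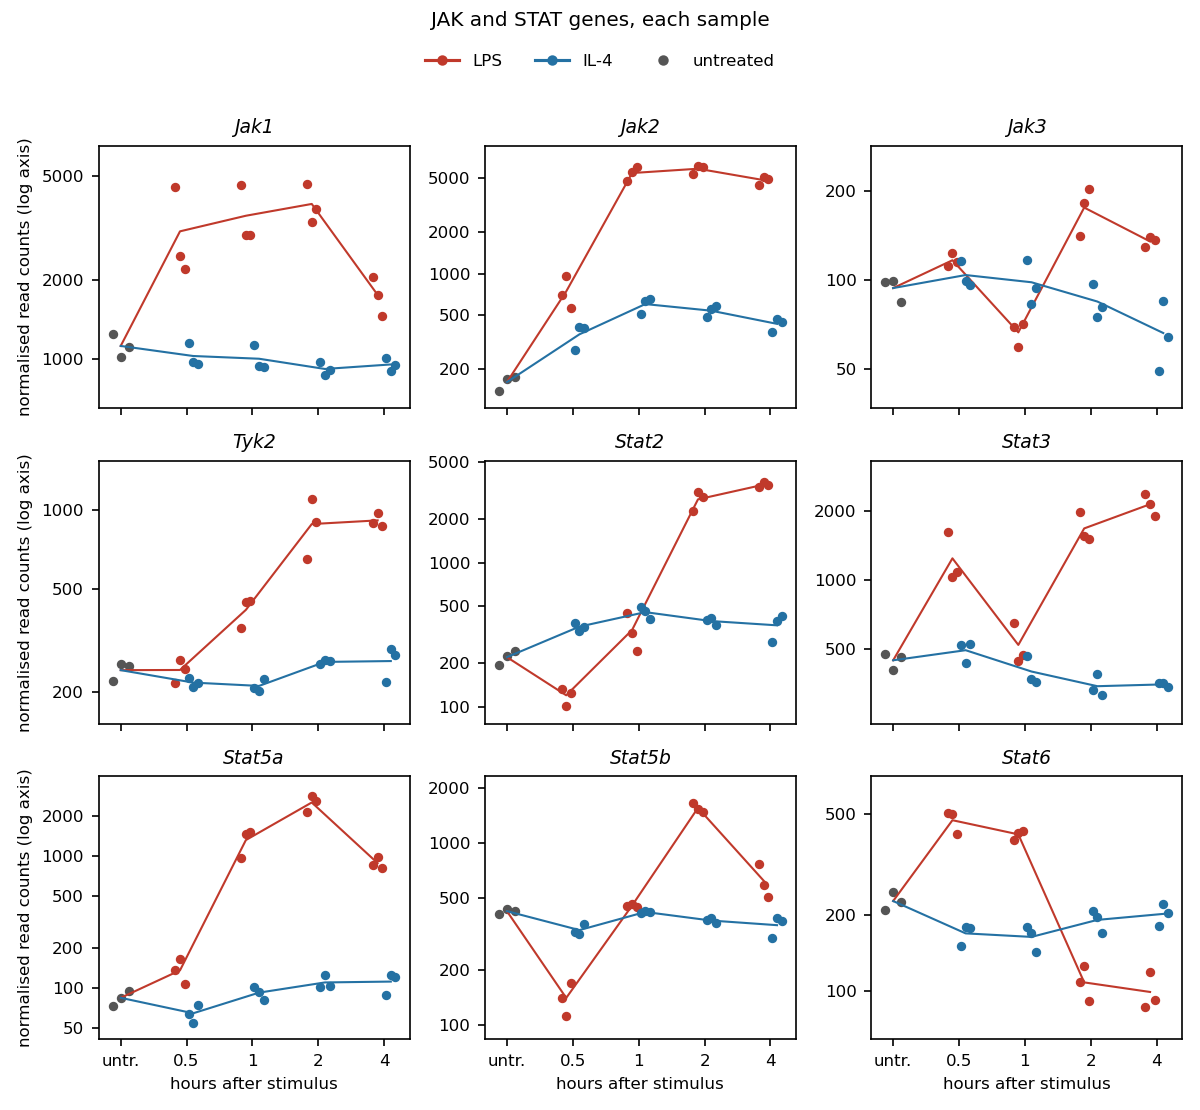
Normalised read counts (log axis) of the 9 genes against hours after the stimulus, 1 point per sample, with untreated samples in grey, LPS in red and IL-4 in blue and lines through the group means (n = 3). Jak2, Stat2 and Stat5a reached means of 5839, 3484 and 2545 after LPS, Stat6 ended at 99 against 226 untreated, and among IL-4 samples Jak2 and Stat2 stood above untreated at all 4 times.

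Time by time, 7 of the 9 genes differed from untreated at 0.5 h of LPS (5 higher, 2 lower), 7 at 1 h (6 higher, 1 lower), and 9 at both 2 h and 4 h (8 higher, 1 lower each). The shares of all tested genes that passed were, in the same order of times, 53.9% (19.6% higher, 34.4% lower), 63.8% (24.8% and 39%), 65.9% (26.9% and 39%) and 63.5% (25.9% and 37.6%). The median log2 change of the 9 genes was 0.67, 0.76, 1.88 and 1.91, beside -0.24, -0.30, -0.29 and -0.26 over all tested genes. With IL-4, 4 genes passed at 0.5 h (2 higher, 2 lower), 3 at 1 h and 3 at 2 h (2 higher, 1 lower each), and 4 at 4 h (2 higher, 2 lower), beside 16.3% (8.15% higher, 8.14% lower), 21% (11.1% and 9.83%), 27.6% (14.3% and 13.2%) and 25.9% (13.4% and 12.5%) of all tested genes. The median log2 changes were -0.13, -0.01, -0.15 and -0.17, beside -0.02, -0.01, 0.00 and 0.02 over all tested genes. At each of the 4 IL-4 times the median gene of the 9 thus lay within 0.19 log2 units of the median tested gene, and Jak2 and Stat2 lay far above it.

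**Figure D2:**
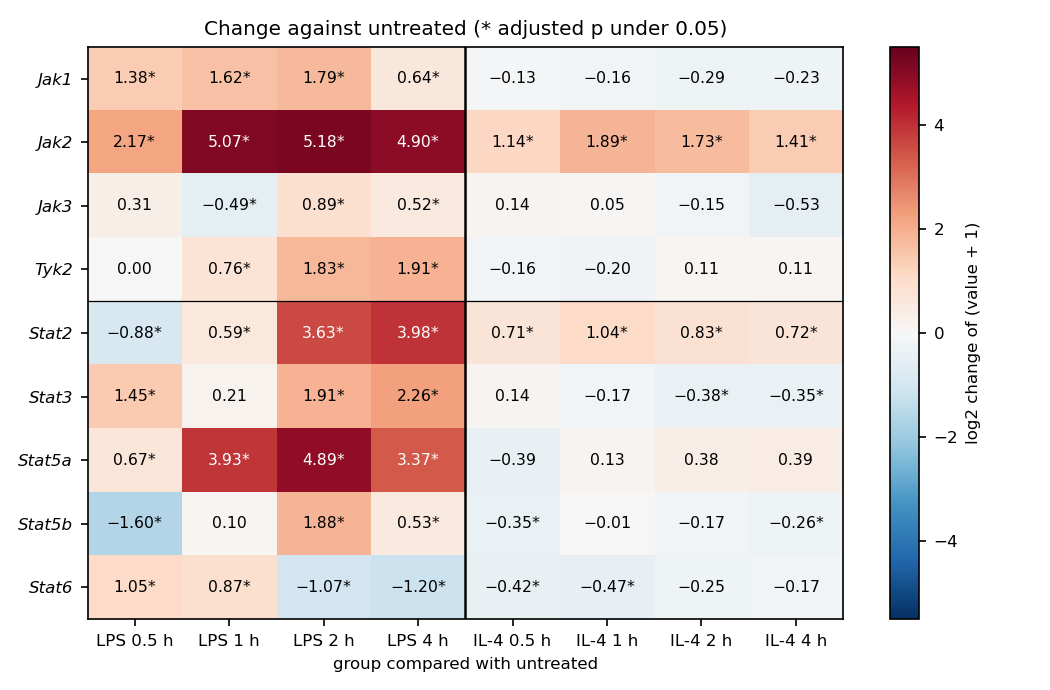
Log2 change of (value + 1) against untreated for the 9 genes in the 8 stimulated groups (n = 3 each), kinases above the thin line and factors below it, red for higher and blue for lower, with a star where the limma adjusted p was under 0.05. LPS columns run from 5.18 for Jak2 at 2 h down to -1.60 for Stat5b at 0.5 h, while the IL-4 columns stay between 1.89 and -0.53.

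Each change depends on how libraries are scaled. The invariant-gene scaling used by the authors left the median tested gene 0.24 to 0.30 log2 units lower in LPS than in untreated samples. Giving all libraries equal totals put that median at -0.73 to -0.91, and scaling by the median of ratios put it at -0.01 to -0.06. The directions that turned under equal totals are given with the gene.

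Jak1 (chromosome 4, bases 101151974 to 101265282 of GRCm38, minus strand, Entrez 16451), the kinase shared by interferon, common gamma chain and gp130 receptors, rose within 0.5 h of LPS and held for 2 h. Untreated replicates 1, 2 and 3 read 1238, 1014 and 1105 normalised read counts. With LPS they read 4520, 2476 and 2202 after 0.5 h, 4609, 2963 and 2978 after 1 h, 4657, 3322 and 3725 after 2 h, and 2051, 1748 and 1461 after 4 h. Every LPS sample lay above every untreated one, and replicate 1 was the highest of its group throughout. The log2 change was 1.38 ± 0.24 (SE) at 0.5 h, 1.62 ± 0.24 at 1 h and 1.79 ± 0.24 at 2 h (limma, adjusted p = 0.00019, 2.92e-05 and 8.99e-06), or 2.74, 3.14 and 3.49 times the untreated mean. By 4 h it was 0.64 ± 0.24 (limma, adjusted p = 0.0302), a drop from 2 h of 2.23-fold that passed the test (adjusted p = 0.00266). The call of this drop was lost without replicate 2 (-1.27, adjusted p = 0.0519), without replicate 3 (-1.05, adjusted p = 0.0704) and with replicates 2 and 3 averaged (-1.16, adjusted p = 0.0557). The 4 h call was lost without replicate 2 (log2 change 0.57, adjusted p = 0.198), without replicate 3 (0.76, adjusted p = 0.0687) and under equal totals (0.03, adjusted p = 0.917).

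With IL-4, Jak1 read 1148, 971 and 954 after 0.5 h, 1132, 938 and 930 after 1 h, 971, 863 and 908 after 2 h, and 1007, 898 and 948 after 4 h. The groups overlapped untreated at 0.5 and 1 h, while at 2 and 4 h all replicates lay below it. No time passed (limma, log2 changes from -0.13 to -0.29, adjusted p from 0.0522 to 0.481). With the replicate block, in which each sample is set against its own number, 3 times passed: -0.16 at 1 h (adjusted p = 0.0449), -0.29 at 2 h (adjusted p = 0.00111) and -0.23 at 4 h (adjusted p = 0.00566). In order of level, LPS 2 h, 1 h and 0.5 h overlapped one another, LPS 4 h and then untreated followed with gaps, and the IL-4 groups came last, each overlapping its neighbour.

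Jak2 (chromosome 19, 29251803 to 29313095, plus strand, Entrez 16452), which serves the receptors for interferon-γ, GM-CSF and erythropoietin, was the most strongly induced of the 9 with either stimulus. Its promoter is shown because Jak2 was the gene that moved most. These are the 250 bases before the RefSeq start (GRCm38.p6, chr19:29251553-29251802, plus strand, 5′ to 3′), with each CpG in capitals:
Jak2: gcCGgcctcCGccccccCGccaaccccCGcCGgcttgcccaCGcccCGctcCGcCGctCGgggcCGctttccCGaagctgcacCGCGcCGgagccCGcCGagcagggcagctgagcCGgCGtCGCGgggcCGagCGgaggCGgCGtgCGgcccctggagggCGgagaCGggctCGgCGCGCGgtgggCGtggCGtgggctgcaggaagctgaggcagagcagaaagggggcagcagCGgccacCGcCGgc
The printed stretch holds 37 CpG. The RefSeq window of 300 bases, which runs to 50 bases past the start, was 81% G and C with 44 CpG, beside medians of 52.7% and 7 over 32851 mouse promoter windows.

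Untreated samples read 138, 168 and 176 for Jak2 in replicates 1, 2 and 3. LPS samples read 698, 960 and 562 after 0.5 h, 4717, 5554 and 6020 after 1 h, 5352, 6162 and 6004 after 2 h, and 4437, 5115 and 4901 after 4 h. Thus the lowest LPS sample held over 3 times the highest untreated value, and the largest step fell between 0.5 and 1 h. The log2 changes were 2.17 ± 0.16, 5.07 ± 0.16, 5.18 ± 0.16 and 4.90 ± 0.16 (SE; limma, adjusted p = 3.94e-08, 1.4e-12, 8.75e-13 and 1.47e-12), which put Jak2 at 4.61, 33.8, 36.3 and 30.0 times untreated. Between 0.5 and 1 h it rose a further 7.34-fold (adjusted p = 5.41e-09), whereas the later steps did not pass (adjusted p = 0.641 and 0.264). At 1 h the change of Jak2 was above that of 99.3% of tested genes.

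IL-4 samples read 275, 404 and 398 for Jak2 after 0.5 h, 506, 632 and 655 after 1 h, 479, 551 and 574 after 2 h, and 374, 468 and 443 after 4 h. All 12 lay above untreated, with a peak at 1 h. The log2 changes were 1.14 ± 0.16, 1.89 ± 0.16, 1.73 ± 0.16 and 1.41 ± 0.16 (limma, adjusted p = 0.000166, 1.14e-06, 2.06e-06 and 1.69e-05), or 2.23, 3.72, 3.33 and 2.67 times untreated. The rise between 0.5 and 1 h passed (1.66-fold, adjusted p = 0.0112), and the drop of 0.32 between 2 and 4 h passed only with the replicate block (adjusted p = 0.00876, against 0.308). Replicate 1 was the lowest of its group in 8 of the 9 groups. The order of levels ran from LPS 2 h, 1 h and 4 h, which overlapped in turn, over a gap to LPS 0.5 h and IL-4 1 h, which overlapped, down to untreated, which lay apart from all others.

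Jak3 (chromosome 8, 71676383 to 71690577, plus strand, Entrez 16453), the partner of the common gamma chain, had low levels and the smallest LPS response of the kinases. The untreated samples held 98, 99 and 84 normalised read counts. LPS samples held 111, 123 and 115 after 0.5 h, 69, 59 and 71 after 1 h, 141, 182 and 203 after 2 h, and 129, 139 and 136 after 4 h. None of these groups overlapped untreated, and the order of the times was not monotonic: above, below, above and above. The log2 change of 0.31 ± 0.15 at 0.5 h did not pass (limma, adjusted p = 0.0888). At 1 h it fell by 0.49 ± 0.15 on the log2 scale (limma, adjusted p = 0.00909), or -0.19 relative to the median tested gene, and the call was lost under median-of-ratios scaling (-0.23, adjusted p = 0.156) and without replicate 2 (-0.37, adjusted p = 0.187). It then rose 2.64-fold between 1 and 2 h (adjusted p = 1.76e-06) to a log2 change of 0.89 ± 0.15 against untreated (adjusted p = 8.3e-05), which under equal totals was 0.23 and did not pass (adjusted p = 0.178). The 4 h change was 0.52 ± 0.15 (adjusted p = 0.0062) as scaled by the authors and -0.082 under equal totals, and it did not pass without replicate 2 (adjusted p = 0.0652) or without replicate 3 (adjusted p = 0.0999).

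In IL-4 samples Jak3 read 116, 99 and 96 after 0.5 h, 117, 83 and 94 after 1 h, 97, 75 and 81 after 2 h, and 49, 85 and 64 after 4 h. Each IL-4 group overlapped untreated. The lowest was 4 h, with a log2 change of -0.53 ± 0.19 (limma, adjusted p = 0.0506), and with the replicate block its adjusted p was 0.034. By level LPS 2 h and LPS 4 h lay apart at the top, the next 5 groups overlapped one after another, and LPS 1 h and IL-4 4 h overlapped at the bottom, with means of 66.3 and 66.0. The gene Insl3 lies within the Jak3 interval on the same strand and read 0 to 8 in every sample.

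Tyk2 (chromosome 9, 21104068 to 21131275, minus strand, Entrez 54721), the kinase of the interferon-α/β and IL-12 receptors, rose later than Jak1 and Jak2. Values of 220, 256 and 251 in untreated samples compared with 217, 266 and 245 after 0.5 h of LPS, 351, 442 and 448 after 1 h, 647, 1107 and 903 after 2 h, and 897, 976 and 872 after 4 h. The first of these groups overlapped untreated and the other three lay above it. The log2 change was 0.00 ± 0.17 at 0.5 h as scaled by the authors and -0.51 under equal totals, and then 0.76 ± 0.17, 1.83 ± 0.17 and 1.91 ± 0.17 (limma, adjusted p = 0.000929, 1.1e-07 and 6.8e-08). The steps to 1 h (1.70-fold, adjusted p = 0.00137) and to 2 h (2.14-fold, adjusted p = 7.53e-05) passed, and the step to 4 h did not. Without replicate 3 the first of these calls was lost (0.71 log2 units, adjusted p = 0.054). Under equal totals the 1 h change was 0.18 (adjusted p = 0.352).

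With IL-4, Tyk2 read 227, 208 and 216 after 0.5 h, 207, 201 and 224 after 1 h, 255, 265 and 262 after 2 h, and 219, 292 and 277 after 4 h. All of these groups overlapped untreated and none passed (limma, log2 changes from -0.20 to 0.11, adjusted p from 0.203 to 0.501). Within the course, the 2 h samples all lay above the 1 h samples by 1.24-fold, a step with an adjusted p of 0.0808, or 0.0354 with the replicate block. Without replicate 1 the log2 change at 0.5 h was -0.26 (adjusted p = 0.0406) and at 1 h -0.26 (adjusted p = 0.0338). By level LPS 4 h and 2 h overlapped at the top, LPS 1 h lay apart below them, and the remaining 6 groups, untreated among them, overlapped in turn.

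Stat2 (chromosome 10, 128270498 to 128292853, plus strand, Entrez 20847), the factor that joins IRF9 in the complex formed after type I interferon, fell first and rose late with LPS. Its promoter window was the only one of the 9 genes in which a searched motif was found, and 30 bases around the match to the interferon-response core (GRCm38.p6, chr10:128270272-128270301, plus strand, 5′ to 3′, RefSeq) are shown with that match in capitals:
Stat2: ctggTTTCAGTTTCctttccctagaactca
The match reads GAAANNGAAA on the other strand and spans 222 to 213 bases before the start. The stretch lies within the span of Apof, a gene on the same strand that ends inside Stat2.

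Stat2 read 194, 225 and 245 in untreated samples. With LPS it read 134, 102 and 125 after 0.5 h, 451, 328 and 246 after 1 h, 2300, 3112 and 2851 after 2 h, and 3330, 3631 and 3491 after 4 h. No LPS group overlapped untreated: the first lay below it and the other three above, the 1 h group by a single count at its lowest sample. It fell by 0.88 ± 0.19 on the log2 scale at 0.5 h, or -0.63 relative to the median tested gene (limma, adjusted p = 0.000969), and the changes at 1, 2 and 4 h were 0.59 ± 0.19, 3.63 ± 0.19 and 3.98 ± 0.19 (adjusted p = 0.012, 1.49e-10 and 4.65e-11), which at 4 h was 15.7 times untreated. The steps to 1 h (2.84-fold, adjusted p = 1.09e-05) and to 2 h (8.06-fold, adjusted p = 4.49e-09) passed and the step to 4 h did not (adjusted p = 0.205). The call at 0.5 h was lost without replicate 2 (-0.75, adjusted p = 0.0532), and that at 1 h was lost without replicate 1 (0.27, adjusted p = 0.0805), without replicate 2 (0.61, adjusted p = 0.0851) and under equal totals (0.01, adjusted p = 0.978).

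With IL-4, Stat2 read 385, 338 and 358 after 0.5 h, 496, 459 and 408 after 1 h, 400, 413 and 369 after 2 h, and 283, 397 and 424 after 4 h. All 12 samples lay above the untreated ones. The log2 changes were 0.71 ± 0.14, 1.04 ± 0.14, 0.83 ± 0.14 and 0.72 ± 0.14 (limma, adjusted p = 0.00267, 8.24e-05, 0.00043 and 0.00157). At 1 h this was 2.05 times untreated and above the change of 94.6% of tested genes, and without replicate 2 the calls at 0.5 h (adjusted p = 0.0848) and 4 h (adjusted p = 0.0809) were lost. Apof, which shares bases with Stat2, moved alongside it, from 22.0 ± 7.81 (SD, n = 3) in untreated samples to 15.7 ± 3.79 after 0.5 h, 324 ± 102 after 2 h and 441 ± 117 after 4 h with LPS and 45.3 ± 2.08 after 1 h with IL-4. Reads from the shared bases cannot be told apart between the pair. By level LPS 4 h and 2 h lay apart at the top, the IL-4 groups and LPS 1 h overlapped in turn, and untreated and then LPS 0.5 h lay apart at the bottom.

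Stat3 (chromosome 11, 100886806 to 100939540, minus strand, Entrez 20848), the factor downstream of IL-6 and IL-10 receptors, showed 2 separate rises after LPS. Untreated samples read 474, 404 and 459. LPS samples read 1626, 1027 and 1079 after 0.5 h, 649, 443 and 469 after 1 h, 1980, 1560 and 1504 after 2 h, and 2368, 2153 and 1914 after 4 h. The 1 h group overlapped untreated, and the groups on either side of it lay above both. The log2 changes were 1.45 ± 0.18, 0.21 ± 0.18, 1.91 ± 0.18 and 2.26 ± 0.18 (limma, adjusted p = 8.51e-06, 0.337, 2.02e-07 and 2.78e-08). Between 0.5 and 1 h it fell by 1.25 (adjusted p = 4.36e-05) and between 1 and 2 h it rose by 1.70 (adjusted p = 1.67e-06). The further step of 0.36 to 4 h did not pass (adjusted p = 0.186), and did with the replicate block (adjusted p = 0.0165). The non-coding gene Gm46295, on the other strand across the Stat3 start, held 5 to 75 normalised read counts.

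With IL-4, Stat3 read 522, 432 and 526 after 0.5 h, 465, 370 and 359 after 1 h, 329, 387 and 314 after 2 h, and 353, 354 and 342 after 4 h. The last 2 groups lay wholly below untreated. It fell by 0.38 ± 0.12 at 2 h and by 0.35 ± 0.12 at 4 h on the log2 scale (limma, adjusted p = 0.026 and 0.0416), that is 1.30-fold and 1.27-fold. The 2 h call was lost without replicate 1 (adjusted p = 0.0785) and without replicate 3 (adjusted p = 0.292), and the 4 h call without any one of the replicates (adjusted p from 0.0717 to 0.28). By level the 3 high LPS groups overlapped in turn, LPS 1 h, IL-4 0.5 h, untreated and IL-4 1 h formed a chain of overlapping groups, and IL-4 4 h and 2 h overlapped below them.

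Stat5a (chromosome 11, 100859351 to 100885169, plus strand, Entrez 20850) and Stat5b (chromosome 11, 100780731 to 100850581, minus strand, Entrez 20851) are neighbouring paralogs that act downstream of GM-CSF, IL-3 and common gamma chain cytokines. Their annotated spans are 8769 bases apart, and the span of Stat3 lies 1636 bases from the other end of Stat5a. The authors removed reads with several hits, so stretches identical in both would add to neither. Stat5a read 74, 85 and 95 in untreated samples. LPS samples read 137, 166 and 107 after 0.5 h, 967, 1468 and 1532 after 1 h, 2168, 2862 and 2605 after 2 h, and 861, 979 and 813 after 4 h. All 12 lay above untreated, with a peak at 2 h of 30.1 times the untreated mean. The log2 changes were 0.67 ± 0.19, 3.93 ± 0.19, 4.89 ± 0.19 and 3.37 ± 0.19 (limma, adjusted p = 0.00736, 1.28e-10, 5.99e-12 and 3.94e-10), and the call at 0.5 h was lost without replicate 2 (0.52, adjusted p = 0.124) and under equal totals (0.16, adjusted p = 0.482). All 3 steps passed: a rise of 9.68-fold to 1 h, above that of 99.6% of tested genes, a rise of 1.92-fold to 2 h and a step in which it fell by 1.52 log2 units to 4 h (adjusted p = 6.27e-09, 0.000616 and 3.27e-05).

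Stat5b read 410, 434 and 425 in untreated samples. LPS samples read 141, 112 and 171 after 0.5 h, 452, 464 and 447 after 1 h, 1658, 1538 and 1485 after 2 h, and 766, 589 and 505 after 4 h. At 0.5 h all replicates lay below untreated and from 1 h on all lay above. It fell by 1.60 ± 0.15 on the log2 scale at 0.5 h, or -1.35 relative to the median tested gene (limma, adjusted p = 5.77e-07), when Stat5a rose. At 1 h the change was 0.10 ± 0.15 as scaled by the authors (adjusted p = 0.576) and -0.48 under equal totals (adjusted p = 0.0114). The peak at 2 h was 1.88 ± 0.15 (adjusted p = 3.61e-08). At 4 h it was 0.53 ± 0.15 (adjusted p = 0.00744), with -0.079 under equal totals and an adjusted p of 0.0592 without replicate 1. The 3 steps passed at 1.70, 1.78 and -1.35 log2 units (adjusted p = 4.03e-07, 1.76e-07 and 1.48e-05).

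With IL-4, Stat5a read 64, 55 and 75 after 0.5 h, 102, 94 and 82 after 1 h, 103, 125 and 104 after 2 h, and 89, 126 and 122 after 4 h. The 0.5 h samples lay mostly below untreated, the 2 h samples all lay above it and the 4 h samples mostly above. The F test over the course passed (limma, adjusted p = 0.00667) while no single time did (log2 changes of -0.39, 0.13, 0.38 and 0.39, adjusted p from 0.0915 to 0.648). Its step of 0.52 from 0.5 to 1 h had an adjusted p of 0.0688, or 0.0353 with the replicate block. Stat5b read 324, 316 and 359 after 0.5 h, 413, 422 and 421 after 1 h, 377, 388 and 362 after 2 h, and 300, 390 and 373 after 4 h. Stat5b fell by 0.35 ± 0.09 at 0.5 h and by 0.26 ± 0.09 at 4 h (limma, adjusted p = 0.0169 and 0.0452), and rose by 0.33 between 0.5 and 1 h (adjusted p = 0.0388). The 0.5 h call was lost without replicate 2 (adjusted p = 0.261) and without replicate 3 (adjusted p = 0.133), and the 4 h call without any one of the replicates (adjusted p from 0.124 to 0.19).

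In order of level, Stat5a LPS 2 h lay apart at the top, LPS 1 h and 4 h overlapped, and LPS 0.5 h overlapped IL-4 4 h and, through it, IL-4 2 h. For Stat5b LPS 2 h, 4 h and 1 h were each apart from the next, untreated and IL-4 1 h overlapped, the other IL-4 groups overlapped in turn, and LPS 0.5 h lay apart at the bottom. Comparing the neighbours within a library cancels the scaling of that library. Values in this ratio were not divided by length, and Stat5b is the longer gene. It has 7954 exon bases in a span of 69851, against 3968 in 25819 for Stat5a. The ratio therefore compares groups and does not say which of the pair was the higher. The linear ratio of Stat5a to Stat5b averaged 0.200 in untreated samples (0.180 to 0.224). From 0.5 h to 4 h of LPS it averaged 1.03, 2.91, 1.64 and 1.47, and 0.193, 0.221, 0.294 and 0.316 at the same times of IL-4. The ratio was higher with LPS than with IL-4 in 12 of 12 samples of the same time and number, by 2.66 log2 units on average over the 4 times. In an exact permutation test of this single value, with stimulus labels exchanged within each time, p was 1.25e-05 (two-sided), the smallest that its 160000 regroupings can give. This test exchanges samples freely, although same-numbered samples deviated together and replicate numbers recur at all 4 times. Exchanging labels within the 12 pairs gave an exact p of 0.000488, the smallest of 4096 regroupings, and exchanging whole replicate sets, a check added after the data were seen, cannot go below an exact p of 0.25 with 3 sets. The ratio was tested for this gene pair only.

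**Figure D3:**
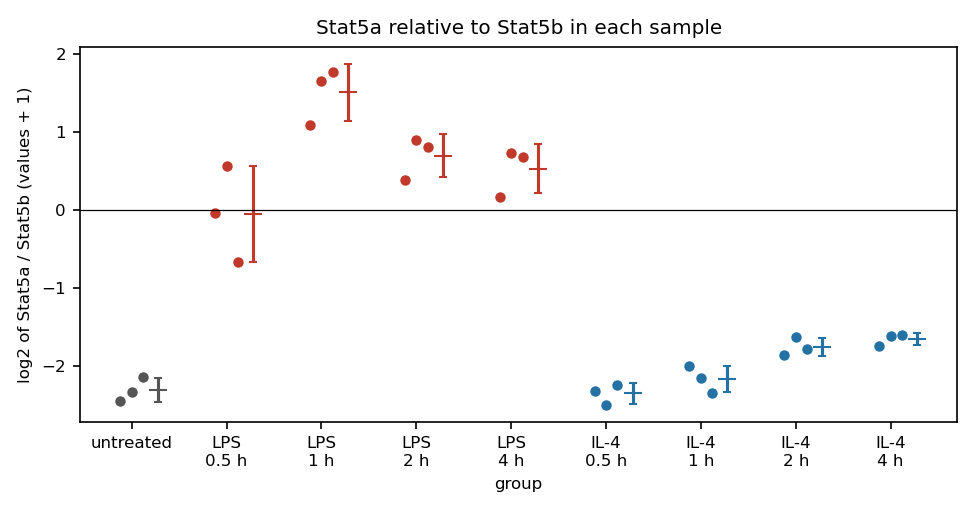
Log2 ratio of Stat5a to Stat5b (values + 1) in each sample, by group, with untreated in grey, LPS in red and IL-4 in blue, replicates 1 to 3 from left to right, and the mean with SD bars beside them (n = 3). Untreated and IL-4 samples lie below -1.60 and LPS samples lie between -0.67 and 1.77.

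Stat6 (chromosome 10, 127642986 to 127660987, plus strand, Entrez 20852), the factor activated by IL-4 and IL-13, was the only one of the 9 that ended lower after LPS. Untreated samples read 209, 245 and 225. LPS samples read 502, 498 and 416 after 0.5 h, 396, 420 and 429 after 1 h, 108, 125 and 91 after 2 h, and 86, 119 and 92 after 4 h. The first 2 groups lay above untreated and the last 2 below, with no overlap. The log2 changes were 1.05 ± 0.15, 0.87 ± 0.15, -1.07 ± 0.15 and -1.20 ± 0.15 (limma, adjusted p = 2.63e-05, 0.000108, 1.25e-05 and 3.87e-06), and those at 2 and 4 h were -0.78 and -0.94 relative to the median tested gene. Between 1 and 2 h it fell by 1.94 (adjusted p = 4.34e-08), while the step before and the step after did not pass (adjusted p = 0.332 and 0.61). Under equal totals the 1 h change was 0.29 (adjusted p = 0.0910). Gm30989, a non-coding gene on the other strand inside Stat6, moved the same way, from 49.3 ± 12.1 (SD, n = 3) in untreated samples to 132 ± 24.1 at 0.5 h and 27 ± 7.81 at 2 h. Counting by strand is not stated in the sources used here, so reads from the pair cannot be told apart.

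With IL-4, Stat6 read 150, 179 and 177 after 0.5 h, 178, 170 and 142 after 1 h, 207, 195 and 170 after 2 h, and 180, 221 and 203 after 4 h. The first 3 groups lay below untreated and the last overlapped it. It fell by 0.42 ± 0.12 at 0.5 h and by 0.47 ± 0.12 at 1 h (limma, adjusted p = 0.0245 and 0.0105), that is 1.34-fold and 1.39-fold, and the changes of -0.25 and -0.17 at 2 and 4 h did not pass (adjusted p = 0.143 and 0.341). Both calls were lost without replicate 2 (adjusted p = 0.233 and 0.156) and without replicate 3 (adjusted p = 0.131 and 0.179). By level LPS 0.5 h and 1 h overlapped at the top, untreated and the IL-4 groups formed a chain of overlapping groups, and LPS 2 h and 4 h overlapped at the bottom.

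Set against each other at the same time, LPS and IL-4 samples differed in 7 of the 9 genes at 0.5 h, 8 at 1 h and 9 at both 2 h and 4 h (limma, 1 fit of all 27 samples), beside 53.8%, 64.5%, 68.6% and 68% of all tested genes. The median difference over the 9 genes was 1.03, 0.96, 2.08 and 1.81 log2 units, beside -0.23, -0.33, -0.34 and -0.36 over all tested genes. Jak2, which rose with both, was 2.06, 9.09, 10.9 and 11.2 times as high with LPS (adjusted p from 6.59e-15 to 1.48e-05). Stat2 was lower with LPS at 0.5 h (-1.58 ± 0.17, adjusted p = 4.54e-08) and at 1 h (-0.45 ± 0.17, adjusted p = 0.0259, with overlapping samples) and then higher (2.79 and 3.26 ± 0.17, adjusted p = 7.9e-13 and 4.24e-14). The Stat2 call at 1 h was lost under median-of-ratios scaling (-0.17, adjusted p = 0.389), in the fit of the 2 groups only (adjusted p = 0.0932), without replicate 2 (adjusted p = 0.17) or replicate 3 (adjusted p = 0.231), and with those 2 averaged (adjusted p = 0.181). Stat6 was higher with LPS at 0.5 and 1 h (1.48 and 1.35 ± 0.14, adjusted p = 3.85e-09 and 9.98e-09) and lower at 2 and 4 h (-0.82 and -1.03 ± 0.14, adjusted p = 1.37e-05 and 5.85e-07). Stat5b was lower with LPS at 0.5 h (-1.25 ± 0.13, adjusted p = 3.9e-08) and Jak3 at 1 h (-0.55 ± 0.17, adjusted p = 0.00778). The Jak3 call was lost under median-of-ratios scaling (-0.27, adjusted p = 0.165) and without replicate 3 (-0.62, adjusted p = 0.0557). At 1 h Stat3 was 0.37 ± 0.16 higher (adjusted p = 0.0482) as scaled by the authors and -0.10 under equal totals, and the call was also lost without replicate 2 (adjusted p = 0.109), without replicate 3 (adjusted p = 0.195), with those 2 averaged (adjusted p = 0.134), without a filter on low values (adjusted p = 0.0885) and in the fit of the 2 groups only (adjusted p = 0.0895). At 4 h the calls of Jak1 (0.87 ± 0.20 higher with LPS) and Stat5b (0.79 ± 0.13 higher) were lost under equal totals (0.25 and 0.17, adjusted p = 0.251 and 0.242). The comparisons that did not pass were Jak3 (0.17 ± 0.17) and Tyk2 (0.16 ± 0.15) at 0.5 h and Stat5b at 1 h, with 0.12 ± 0.13 as scaled by the authors and -0.36 under equal totals. The courses share their untreated samples, so among the limma results only these direct comparisons set the stimuli against each other.

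Of the 27 steps between neighbouring LPS times (9 genes by 3 steps) 17 passed, 7 from 0.5 to 1 h, 7 from 1 to 2 h and 3 from 2 to 4 h, beside 49.7%, 43.3% and 22.9% of all tested genes. Of these steps Jak1 passed at the last, Jak2 at the first and Stat6 at the second, and differences between steps were not tested. Without replicate 1 the step of Jak1 from 0.5 to 1 h passed too (0.35, adjusted p = 0.00987). Jak1, Stat5a and Stat5b were the genes that passed from 2 to 4 h, and all fell. Of the 27 IL-4 steps, 2 passed (Jak2 and Stat5b, both rising from 0.5 to 1 h), beside 7.82%, 9.4% and 5.48% of all tested genes. In limma 0 of the 9 genes passed from 1 to 2 h and 0 from 2 to 4 h, where the unadjusted p was under 0.05 for 1 gene (Tyk2) and 0 genes. With the replicate block 5 IL-4 steps passed, and 0 passed without replicate 2 or without replicate 3. In order of steps, 2099, 2319 and 1726 of all 13901 tested genes passed with the block. Without replicate 2 only 68, 166 and 11 of them did, and without replicate 3 only 80, 203 and 32.

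**Figure D4:**
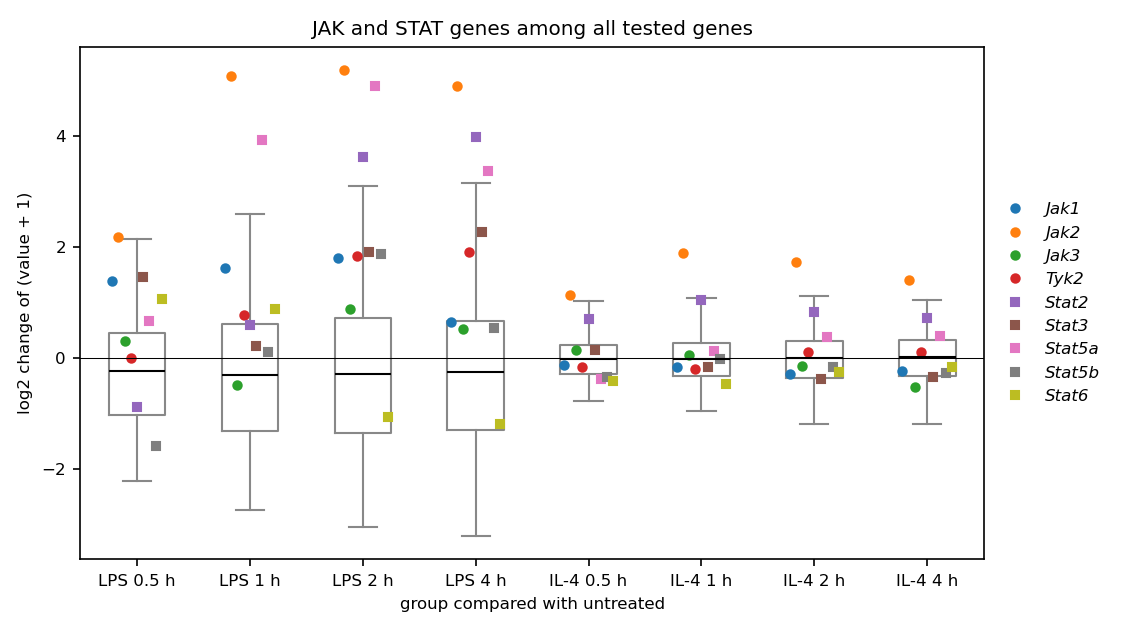
Log2 change of (value + 1) against untreated for the 9 genes (circles for kinases, squares for factors) and all 13901 tested genes (box from the 25th to the 75th percentile with the median, whiskers from the 5th to the 95th) in the 8 stimulated groups. Jak2 lies above the upper whisker in every group, Stat5a at 1, 2 and 4 h and Stat2 at 2 and 4 h of LPS, and Stat5b at 0.5 h and Stat6 at 2 and 4 h of LPS lie in the lower part of the distribution.

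Apart from the Stat5a to Stat5b ratio, levels of different genes were compared only per length. Since chromatin-associated RNA holds introns, the order depends on which length is used. Per kilobase of exon, Jak1 had the highest untreated level (211 normalised read counts), followed by Stat3 (98.6), Stat6 (59.5), Stat5b (53.2), Tyk2 (49.7), Stat2 (49.4), Jak2 (31.7), Jak3 (22.9) and Stat5a (21.3). Per kilobase of the whole gene the untreated order began with Stat6 (12.6), Stat2 (9.90) and Jak1 (9.88), and ended with Stat5a (3.28) and Jak2 (2.62). Jak1 spans 113309 bases with 5299 in exons, and Stat6 spans 18002 with 3805 in exons. At 2 h of LPS Jak2 was first per kilobase of exon (1152) and Stat2 first per kilobase of gene (123), and Stat6 was last on both scales (28.4 and 6.0). At 1 h of IL-4 Jak1 (189), Jak2 (118) and Stat2 (102) led per kilobase of exon, and Stat2 (20.3) and Jak2 (9.75) per kilobase of gene.

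Promoter windows of RefSeq (GRCm38.p6, 250 bases before to 50 after the start) were found for all 9 genes, 11 windows in all. They were searched on both strands for TTCNNNGAA, the site of most STAT dimers, for TTCNNNNGAA, the spacing preferred by STAT6, for the interferon-response core GAAANNGAAA and for the NF-κB form GGGNNTTTCC. Of all 32851 windows 8.3%, 6.95%, 3.44% and 1.63% hold these letters. Stat2 held the interferon-response core given above and TTCNNNNGAA 210 to 201 bases before its start, which reads the same on both strands. The windows of the other 8 genes held none of the 4, which says only that these letters are not in these windows. In G and C content the windows ran from 47.3% in the second window of Stat5b to 82.7% in its first, which held 50 CpG.

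By Pearson correlation of log2 values over the 27 samples, which share 9 groups and 1 scaling, the members most alike were Jak2 and Stat5a (r = 0.950) and the least alike Stat2 and Stat6 (r = -0.821). Among 6146 other protein-coding genes the closest to Jak2 were Abtb2 (r = 0.984), Riok3 and Zc3h7a, to Jak1 Vps37c (0.962), Foxp4 and Fbxw11, to Jak3 Dkc1 (0.876), Mycbp2 and Hdac9, and to Tyk2 Hdc (0.979), Mapkbp1 and Cmtr1. For the factors they were Dbnl (0.990), Stard3 and Marf1 for Stat2, Tut7 (0.969), Csrp1 and Hdac1 for Stat3, Kremen1 (0.977), Cln3 and Zdhhc18 for Stat5a, Mosmo (0.968), Ecpas and Ube2r2 for Stat5b, and Dnajb4 (0.960), Slc8b1 and Ube2e3 for Stat6. Jak3 had the lowest closest match of the 9.

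The other genes of the pathway were read from lists of 161 genes, of which 128 were tested. With LPS 118 changed over the course, 98 of them rising and 20 falling at the time of the largest change, whereas of all tested genes 87.6% changed, 32.9% upwards and 54.7% downwards. The median largest change was 2.50 log2 units over the lists and -1.0 over all tested genes. Receptors split (20 rose, 6 fell, of 27 tested): Il15ra, a receptor chain for IL-15, went from 43.0 ± 11.3 to 1725 ± 177 normalised read counts at 4 h (SD, n = 3), and Lifr, a gp130 partner, from 235 ± 20.2 to 7.67 ± 3.79. Of 30 listed ligands 13 were tested, and all 13 rose. Among them Il12b was at 0 in untreated samples and at least 183-fold higher at 1 h (against a floor of 3 in the untreated mean), and Il6 reached 388 ± 19.4 at 4 h. A gene near 0 in untreated samples enters the tests only through the groups where it is high, so the count of rises is partly set by the filter. Of 20 inhibitors 12 rose and 6 fell, with Cish from 2.33 ± 2.31 to 434 ± 121 and Socs3 from 3.33 ± 1.53 to 453 ± 35.4 at 2 h, and Socs6 from 474 ± 155 to 73.3 ± 5.03 at 0.5 h. Partners of the factors split 8 to 4, with Nmi rising to 477 ± 22.9 and the coactivator Ep300 falling from 926 ± 71.4 to 264 ± 49.2.

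Targets were counted list by list, and no difference between lists was tested. Targets near 0 in untreated samples, such as Cxcl10 and Pdcd1lg2, likewise entered the tests only through the groups where they were high. All 23 tested interferon targets of STAT2 rose with LPS, such as Cxcl10 from 2.67 ± 0.58 to 1754 ± 286 at 2 h, and with IL-4 11 fell and 2 rose of 23, such as Mx2 from 111 ± 26.5 to 43.0 ± 5.00 and Irf7 from 22.0 ± 2.65 to 89.3 ± 10.7. All 16 STAT3 and STAT5 targets changed with LPS (15 rose, 1 fell), with Ccnd2 from 8.33 ± 1.53 to 602 ± 25.2, and 9 changed with IL-4 (5 rose, 4 fell), with Myc from 9.67 ± 4.04 to 141 ± 21.8 at 0.5 h. Of 16 STAT6 targets 15 rose with IL-4, with Pdcd1lg2 from 1.00 ± 1.00 to 582 ± 98.1 at 4 h. With LPS 8 of them rose and 3 fell. Slc7a2 went up from 12.3 ± 1.53 to 1726 ± 62.4, and the mannose receptor Mrc1 down from 1878 ± 448 to 102 ± 10.0, both at 4 h. During the IL-4 course 78 of the 128 pathway genes changed (45 rose, 33 fell), beside 40.3% of all tested genes (19.4% and 20.9%). Among them the receptor chain Il4ra went from 432 ± 37.2 to 1391 ± 86.2 at 2 h, Il13ra1 from 50 ± 7.94 to 11.0 ± 2.65 at 4 h, Socs1 from 1.00 ± 1.00 to 196 ± 63.7 at 2 h and the adaptor Irs2 from 52 ± 7.0 to 183 ± 27.3 at 0.5 h. The phosphatase genes Ptpn6 (428 ± 29.6 to 233 ± 8.54) and Ptprc (2920 ± 271 to 1154 ± 190) fell with IL-4, and 2 of 13 tested ligands did, Il15 among them (1255 ± 74.5 to 672 ± 25.2).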

How the data were processed

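Chromatin-associated RNA of 27 samples was sequenced by the authors, single-end, after a Smart-seq2 preparation. Per the methods and the submitters' processing notes, the authors aligned reads to mm10 with TopHat2 2.1.1, removed reads with several hits or in blacklisted regions (samtools, bedtools 2.29.2), counted reads per gene in R/Bioconductor (GRCm38.p6 RefSeq) and scaled libraries on invariant genes. What the authors deposited is the scaled count as a whole number, treated here as a score and not as raw counts, so a design for raw counts was not used. Gene width and transcript length columns were deposited beside them, as other annotation. The read depth behind the values is unknown, and strand is not given in the sources used here.

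Genes with at least 10 in at least 3 samples (13901 genes) were tested with limma 3.58.1 (R 4.3.3) on values increased by 1 and log2-transformed, with a trended prior variance, and p-values were adjusted across these genes by Benjamini-Hochberg at a threshold of 0.05. Each course was fitted with untreated samples (15 samples), and the stimuli were compared in 1 fit of all 27. The scale understates changes of low genes. The main fits held no term for the replicate number, which entered only as a block in an alternative setting. Same-numbered samples deviated together (r from 0.19 to 0.80, over 0.1 in all 36 pairs). By replicate, r was 0.44 to 0.80 for 1, 0.19 to 0.50 for 2 and 0.28 to 0.61 for 3. Deviations were taken from the mean of the 3 replicates, so the offset of replicate 1 alone would make replicates 2 and 3 correlate. Their r therefore cannot show that replicates 2 and 3 pair across groups. Alternatives covered pseudocount, filter, scaling, weights, block and left-out replicates. Sums, ranges, correlations and motif searches used Python 3.11.15.

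The 9 genes, pathway and marker lists were chosen with earlier results of these data known, and the lists were written from general knowledge. All 9 genes are named. Of each pathway list, the named genes come from the 2 largest rises and falls per stimulus (mean of at least 50 in the higher group, no overlap between replicates), and like genes are the 3 highest correlations. The motifs were chosen after the values were seen. Protein sequences were not used here.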

Additional observations from a re-analysis of the deposited data

Results flagged for a closer look

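Each of these results is a pair of opposite changes against untreated at neighbouring LPS times, with the step between them tested in the same limma fit. Jak3 was below untreated at 1 h and above it at 2 h, a step of 1.38 log2 units. Stat2 was below untreated at 0.5 h and above it at 1 h, a step of 1.46. Stat6 was above untreated at 1 h and below it at 2 h, a step of -1.94. The Jak3 call at 1 h was lost under median-of-ratios scaling, and those of Jak3 at 2 h, Stat2 at 1 h and Stat6 at 1 h under equal totals. Without replicate 2 the calls of Jak3 at 1 h and of Stat2 at 0.5 h and 1 h were lost, and without replicate 1 that of Stat2 at 1 h. All 3 genes share bases with another annotated gene, and the part of the shared reads was not tested.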

How the results depend on the processing

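Depth is unknown, 3 replicates a group bound the precision, and replicate 1 stands apart, so the small IL-4 changes are the least secure. The 162 values of the 9 genes were recomputed under each of 14 settings that applied to them, 2106 values in all: 1977 kept their side of the threshold, 79 lost the call, 44 gained one and 6 reversed. Among the 1977, 27 changed sign without passing either way. All 6 reversals came with equal totals, which by construction lowers every LPS value: Tyk2 at 0.5 h -0.51, Stat5b at 1 h -0.48, Jak3 at 4 h -0.082 and Stat5b at 4 h -0.079 of LPS, and LPS against IL-4 at 1 h Stat3 -0.10 and Stat5b -0.36. Pseudocounts of 0.5 and 8 changed no call.

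The counts of genes called against untreated with LPS moved by at most 1.5 times under the settings run, from 9 to 6 at 4 h with equal totals at the widest. Over all 13901 tested genes the 4 h calls went from 8828 to 10234 with equal totals. The IL-4 course count of 6 became 2 with replicates 2 and 3 averaged, and 2 to 8 with a replicate left out. Over all tested genes 5606 course calls became 2503 with the average and 2169 to 6546 with a replicate left out. At 0.5 h of IL-4 the count of 4 became 2 with the average and 1 to 5 with a replicate left out, and at 4 h it was 2 with the average, 2 without a filter and 1 to 3 with a replicate left out. Over all tested genes 2265 calls at 0.5 h became 969 with the average and 773 to 2953 with a replicate left out. At 4 h 3598 became 1838 with the average and 1584 to 4361 with a replicate left out, and 3064 of 30272 passed without a filter. At 2 h of IL-4 the count of 3 was 5 with array weights, where the calls over all tested genes went from 3831 to 4814. The LPS against IL-4 count of 8 at 1 h was 5 to 8 with a replicate left out, and the 8962 calls over all tested genes were 7376 to 9311. The IL-4 step count of 2 was 1 without a filter, 4 with equal totals, 5 with the replicate block, 4 with array weights, 1 in 1 fit of all samples, 0 with the average and 0 to 5 with a replicate left out. In order of steps, calls over all tested genes were 1087, 1306 and 762 in the main fit and 106, 232 and 35 with the average. Equal totals gave 1100, 1449 and 772, and array weights 1754, 2165 and 1819. The fit of all samples gave 628, 881 and 425, and without a filter 722, 906 and 468 of 30272 passed. The IL-4 pathway count of 78 was 49 with the average and 43 to 75 with a replicate left out. The average and the left-out settings hold fewer samples by construction, and for the rest the cause was not tested. The replicate block raised the IL-4 course count from 6 to 9 (Jak1, Jak3 and Tyk2 gained the F test) and the IL-4 count at 4 h from 4 to 6, and changed no single comparison of a gene beyond the 8 gained calls given with the genes. Over all tested genes the block raised the course calls from 5606 to 7409 and those at 4 h from 3598 to 4917. The Stat5a to Stat5b difference was 2.52 to 2.79 with a replicate left out. With whole replicate sets exchanged it was 2.66 and did not pass (exact permutation test, p = 0.25), a check chosen after seeing the data that with 3 sets cannot pass.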

Other observations

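Replicate 1 deviated from the mean of replicates 2 and 3 in a gene-specific way. It was the highest of its group in 9 of 9 groups for Jak1 (median log2 difference 0.28) and in 6 of 9 for Stat3 (0.22), and the lowest in 8 of 9 for Jak2 (-0.28) and 6 of 9 for Tyk2 (-0.20). For Stat5b the median difference was -0.01.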
